A study of Canis lupus familiaris with 186 samples.

Results

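Neutrophil-rich and neutrophil-poor primary osteosarcomas of dogs were compared, with 46 tumors in each group out of 186. Every tumor received a neutrophil score, the mean z-score of log2(CPM + 1) over S100A8, S100A12 and CSF3R, where CPM are counts relative to the library total. The groups were chosen by these measured values: the 46 tumors with the highest scores are called neutrophil-rich and the 46 with the lowest neutrophil-poor, and the other 94 were left between them. The samples are tumor biopsies taken before any treatment from client-owned dogs of the trials COTC021 and COTC022, with 93 of the 186 tumors from each. Age, breed and sex of the dogs were not compared between the groups, and the tumor tissue itself can hold bone, stroma, blood and immune cells. Poly(A) RNA of each tumor was sequenced with a stranded kit, and there is 1 library per dog. The rich group holds 25 tumors of COTC021 and 21 of COTC022, the poor group 24 and 22 (Fisher's exact test, two-sided, p = 1).

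Neutrophils are short-lived granulocytes that leave the bone marrow and enter tissue along chemokine gradients, with CXCL8 as a main attractant and CXCR1 and CXCR2 as its receptors. They kill microbes with granule proteins, with the oxidants of the NADPH oxidase and with extracellular chromatin traps. In tumors they have been tied both to inflammation that restrains growth and to suppression of T cells, and osteosarcoma arises in bone next to the marrow that makes them. In dogs, unlike in humans, neutrophils carry CD4.

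The 3 score genes chose the groups, so their levels are a description with no test. S100A8, which encodes a calcium-binding protein stored in the neutrophil cytosol, lies on chromosome 7 of the build GSD_1.0, from 43530107 to 43531042. Its level ran from 1.16 to 194 CPM in the rich tumors, with a median of 19.8, and from 0.328 to 2.78 CPM in the poor tumors, with a median of 0.938. S100A12, its neighbor from 43543469 to 43544911, ran from 2.97 to 439 CPM with a median of 19.2 in the rich tumors and from 0 to 1.22 CPM with a median of 0.415 in the poor. CSF3R, the receptor of granulocyte colony-stimulating factor on chromosome 15 from 5890652 to 5904148, ran from 2.67 to 377 CPM with a median of 20.6 against 0 to 2.83 CPM with a median of 0.938.

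The 3 genes did not always rank a tumor alike. Of the tumors, 29 were among the highest 46 for all 3 genes and 24 among the lowest 46 for all 3, and 1 rich tumor was among the lowest 46 for S100A8. The score ran from 0.424 to 3.89 in the rich group (mean 1.34 ± 0.733, SD, n = 46) and from -1.26 to -0.640 in the poor group (mean -0.928 ± 0.185, SD, n = 46). Rich tumors were spread more widely than poor ones. At the edges, the lowest rich tumor scored 0.4241 and the next below it 0.3335, while the highest poor tumor scored -0.6403 and the next above it -0.6274.

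**Figure D1:**
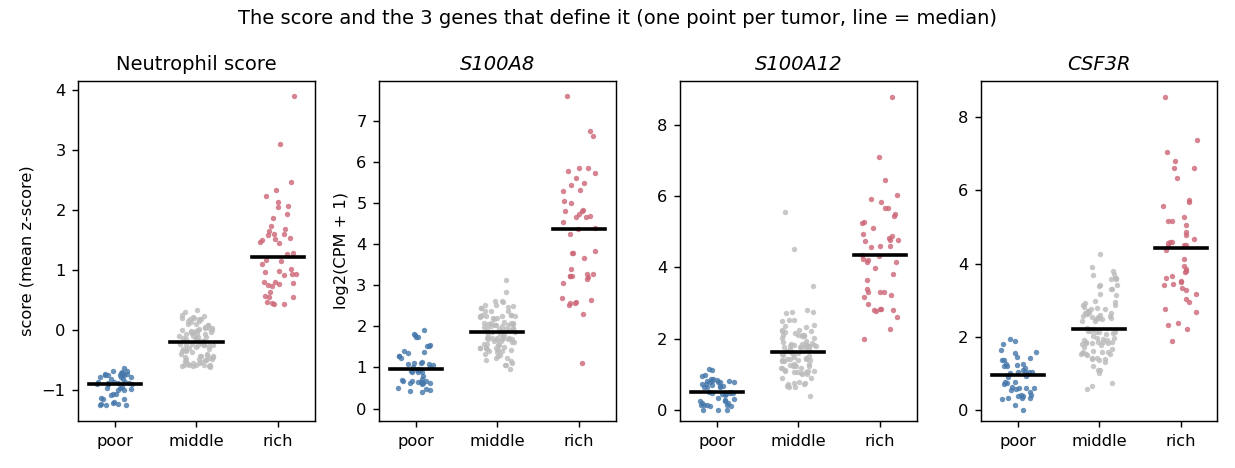
The neutrophil score (mean z-score) and log2(CPM + 1) of the genes that define it, 1 point per tumor, in the neutrophil-poor, middle and neutrophil-rich groups, with the median as a line. The score of the rich tumors reaches 3.89, and the poor tumors lie between -1.26 and -0.640.

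The total count per library ran from 6715161 to 27420867 in the rich tumors, with a median of 10272219, and from 7423496 to 21558536 in the poor tumors, with a median of 12263900 (two-sided permutation test of the means, p = 0.0812). A group of 50 libraries carries the mark "__" in the name of its deposited column and had higher totals, with a median of 19440456 against 9851682 in the other 136. These libraries, called deeper for their totals, hold 11 rich and 18 poor tumors (Fisher's exact test, p = 0.178). What the mark stands for is not given in the sources used here, and fold changes were repeated inside each trial and each of these library groups.

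Once genes with low counts were removed, 1506 of 13419 (11.2%) were higher in the neutrophil-rich tumors and 1221 (9.1%) lower, at an adjusted p under 0.05 (limma-voom with the trial as covariate, Benjamini-Hochberg over all genes). With a fold change above 3 as well, the threshold for differentially expressed genes (DEGs), 215 (1.6%) were higher and 11 (0.082%) lower. The filter asks for enough counts in more than 90 of the 186 tumors, so no gene could pass it through the 46 rich tumors alone. Within COTC021 alone, 510 genes (3.8%) were higher and 168 (1.25%) lower, and within COTC022 alone 785 (5.85%) and 453 (3.38%). The deeper libraries, with 11 rich tumors, gave 135 (1.01%) and 49 (0.365%), and the other libraries 922 (6.87%) and 584 (4.35%). For no gene did the difference between rich and poor tumors differ between the trials or between the library groups at an adjusted p under 0.05 (limma interaction terms), while 373 and 1042 genes had an unadjusted p under 0.05.

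S100A9, the partner of S100A8 in the dimer calprotectin, showed the largest fold change of all genes tested. It lies next to S100A12, from 43556431 to 43559507 on chromosome 7. Its level ran from 6.59 to 345 CPM in the rich tumors (median 30.3) and from 0 to 3.20 CPM in the poor (median 1.05), with a log2 fold change of 5.20 ± 0.41 (SE), adjusted p = 1.16e-17. Every one of the 46 rich tumors lay above every poor tumor, which held for 1 of 13419 genes (0.00745%). At least 23 rich tumors above every poor tumor were found for 13 genes (0.0969%). Among them, HK3, a hexokinase of myeloid cells, came next with 42 rich tumors, followed by CXCL8 with 40, CD4 with 33 and TREM1 with 32. HK3 was named after its values were seen.

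The other S100 genes did not follow the score genes as a family. Of 10 measured members outside the score, 4 were higher and none lower, with a median log2 fold change of 0.44 against -0.0033 for all genes, of which 11.2% were higher. S100P, located on another chromosome, was the second, at 2.15 ± 0.30 (SE), adjusted p = 5.48e-08, and S100A16 and S100A10 followed with 0.81 and 0.39. With the library-name group as a covariate, and with S100A12 left out of the score, 2 of the 10 were called higher. S100A4 and S100A6, abundant in mesenchymal cells, had 0.56 and 0.42 and did not pass (adjusted p = 0.0765 and 0.0929). S100A3, S100A5, S100A14, S100B, S100G and S100Z failed the filter, and S100A7 was not analysed here.

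Of the neutrophil surface receptors and adhesion genes, each of the 14 that passed the filter was higher in the rich tumors, with a median log2 fold change of 1.69. TREM1, which amplifies neutrophil and monocyte activation, ran from 0.321 to 43.2 CPM in the rich tumors (median 3.95) and from 0 to 2.27 CPM in the poor (median 0.656), a log2 fold change of 2.60 ± 0.35 (SE), adjusted p = 2.15e-08. The integrin chain ITGAM (2.24), the receptor of granulocyte-macrophage colony-stimulating factor CSF2RA (2.25), the complement receptor C5AR1 (1.68) and the bacterial sensor TLR4 (1.71) lay between. The smallest changes were those of TLR2, at 0.69, and ITGAX, at 0.76.

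CXCR1, CXCR2, FPR2, LTB4R and IL18RAP of the same list failed the filter, since few counts were found in most tumors. Fitted without the filter, where 2137 of 28868 genes (7.4%) were higher and 1293 (4.48%) lower, all 5 were higher. CXCR1 had 5 to 313.09 expected counts in the rich tumors (median 29.63) and 0 to 15.48 in the poor (median 2.95), with a log2 fold change of 3.95 ± 0.30 (SE), adjusted p = 8.84e-19. At least 10 counts were found in 44 rich and 4 poor tumors. CXCR2 had a median of 9.115 counts against 1, and a log2 fold change of 3.26 ± 0.25 (adjusted p = 1.24e-18). Part of the counts of these paralogs are fractions, since reads that map to both are divided between them, so their separate levels are uncertain. IL18RAP (3.31), FPR2 (2.87) and LTB4R (1.94) followed, and FPR1, FCGR3A, CLEC4E and CLEC4D were not analysed here.

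Granule genes are made at successive stages of neutrophil maturation. Secondary and tertiary granule genes, which belong to late stages, were mostly too low for the filter but higher without it. LTF, the iron-binding lactoferrin, had 3 to 1779 counts in the rich tumors (median 96.5) and 0 to 20 in the poor (median 6), a log2 fold change of 4.19 ± 0.41 (SE), adjusted p = 1.33e-13. SLPI, a protease inhibitor that epithelia also make, was higher by 4.67, the antimicrobial peptide precursor CAMP by 4.10, the collagenase MMP8 by 3.31, CD177 by 3.17 and MMP25 by 1.16. CAMP reached 10 counts in 23 rich tumors and no poor tumor, and MMP8 in 31 rich and 3 poor tumors, so that the rich group was itself divided for these genes. LCN2 (0.78, adjusted p = 0.105), PGLYRP1 (0.50, 0.536) and OLFM4 (0.25, 0.586) did not pass without the filter. Of the 4 that passed the filter, LYZ (2.03 ± 0.23) and CHI3L1 (1.18 ± 0.33) were higher, and MMP9 (0.70 ± 0.61, adjusted p = 0.45) and ARG1 (-0.39 ± 0.25, adjusted p = 0.284) were not. MMP9 is also strongly made by osteoclasts, and its level reached 7317 CPM in a poor tumor.

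Primary granule genes are made in the promyelocyte in the marrow. MPO, myeloperoxidase, ran from 0.139 to 22.2 CPM in the rich tumors (median 2.47) and from 0.206 to 10.6 CPM in the poor (median 2.86), and its log2 fold change of 0.40 ± 0.28 (SE) did not pass (adjusted p = 0.333). The groups overlapped widely, but 8 rich tumors lay above every poor tumor. BPI (1.54 ± 0.24) and CTSC (1.07 ± 0.20) were higher. Without the filter ELANE, neutrophil elastase, was higher by 2.12 ± 0.32 (adjusted p = 3.57e-07), with at least 10 counts in 12 rich tumors and no poor tumor, and CTSG by 2.64 ± 0.44, with 24 rich and 4 poor tumors. PRTN3 and AZU1 were not analysed here.

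**Figure D2:**
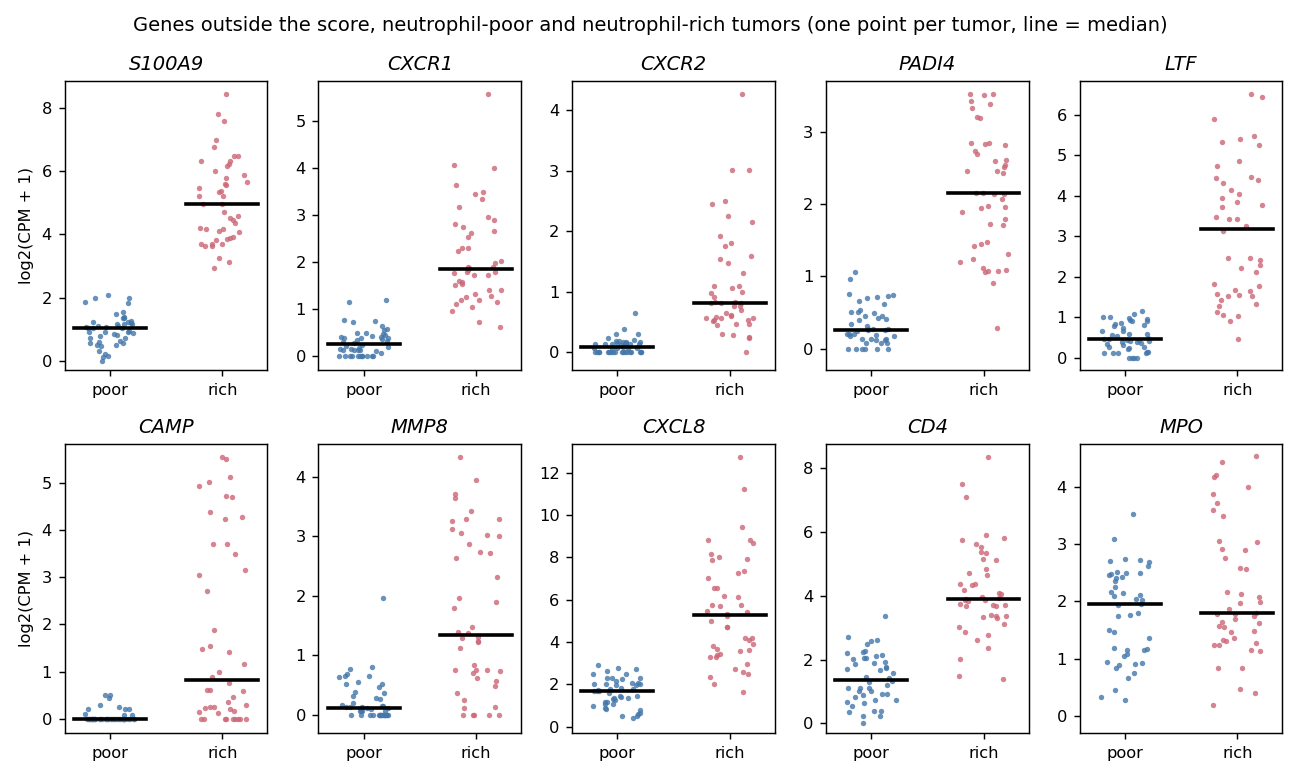
Log2(CPM + 1) of genes outside the score, 1 point per tumor, in the neutrophil-poor and neutrophil-rich groups, with the median as a line. S100A9 shows no overlap, CAMP and MMP8 stay at or near 0 in part of the rich tumors, and the medians of MPO are 2.47 CPM in the rich and 2.86 CPM in the poor tumors.

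Of the 6 NADPH oxidase genes, 5 were higher and none lower, with a median log2 fold change of 1.27. The cytosolic subunit NCF1 had 1.91 ± 0.25 (SE), adjusted p = 5.09e-09, followed by the membrane subunit CYBB at 1.57 ± 0.27. The other membrane subunit, CYBA, which many cell types make, ran from 32.8 to 187 CPM in the rich and from 22.0 to 243 CPM in the poor tumors and had a log2 fold change of 0.06 ± 0.13 (adjusted p = 0.782).

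Among the other neutrophil genes, 5 of 9 that passed the filter were higher. AQP9, a glycerol and water channel, ran from 1.07 to 222 CPM (median 17.7) in the rich and from 0 to 12.9 CPM (median 1.34) in the poor tumors, a log2 fold change of 3.66 ± 0.41 (SE), adjusted p = 6.97e-11. The survival factor BCL2A1 was higher by 2.43, the kinase FGR by 1.72, KCNJ15 by 1.36 and ALOX5, the first enzyme of leukotriene synthesis, by 0.92. PADI4, the enzyme that citrullinates histones when chromatin traps form, failed the filter. It had 2 to 212 counts (median 38.5) in the rich and 0 to 21 (median 3) in the poor tumors, with 3.78 ± 0.26 (SE), adjusted p = 2.02e-21, without the filter. MCEMP1 (3.14), HCAR2 (2.85), MEFV (2.46) and PROK2 were higher there too, and PADI3 was not (0.81, adjusted p = 0.0842).

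FFAR2, a receptor of short-chain fatty acids on neutrophils, was among the 10 genes with the largest positive changes, at 3.61 ± 0.38 (SE), adjusted p = 5.88e-12, with 24 rich tumors above every poor tumor. The list of granulocyte transcription factors, which also holds SOCS3, a feedback inhibitor of cytokine signals, had 5 of 7 genes higher, with a median of 0.86. CEBPD had 1.25, SOCS3 1.00, SPI1 0.89, CEBPA 0.86 and CEBPB 0.71. RUNX1 (0.32, adjusted p = 0.267) and STAT3 (-0.10, adjusted p = 0.514) did not pass, nor did GFI1 without the filter. CEBPE, needed for late granules, had a median of 2 counts in the rich tumors and 0 in the poor, with 1.35 ± 0.26 without the filter.

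CXCL8, the attractant of neutrophils, ran from 2.14 to 6951 CPM in the rich tumors (median 37.8) and from 0.309 to 6.57 CPM in the poor (median 2.19), a log2 fold change of 4.48 ± 0.66 (SE), adjusted p = 1.64e-07. It spanned a wider range among the rich tumors than any score gene, and 40 of them lay above every poor tumor. Of 6 chemoattractants and growth factors that passed the filter, 4 were higher and none lower, with the alarmin IL33 (1.39), CXCL12 (1.25), which retains neutrophils in marrow, and the IL-1 antagonist IL1RN (1.09) beside it. CSF1 (0.48, adjusted p = 0.0797) and LTA4H (-0.01, adjusted p = 0.955) did not pass. Without the filter, PPBP (3.21), IL6 (2.91), IL1B (1.92), CCL4 (1.60), CSF3 (1.57), IL1A (1.24), TNF (1.19) and CSF2 (0.77) were higher, and CCL3, CCL20, IL17A, IL17F and IL23A were not. CSF3, the ligand of the score gene CSF3R, reached 10 counts in 5 rich tumors and no poor tumor. CSF2 did so in 2 rich tumors and TNF in 3, and neither in a poor tumor. CXCL1, CXCL2, CXCL3, CXCL5 and CXCL6 were not analysed here.

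Vessels capture leukocytes with adhesion molecules that inflammation induces. Of the 4 endothelial adhesion genes, SELE (1.98 ± 0.39 SE, adjusted p = 6.79e-05), SELP (1.42 ± 0.38) and VCAM1 (1.34 ± 0.43) were higher, and ICAM1 had 0.48 ± 0.20 (adjusted p = 0.0806). In edgeR, with the continuous score, with the muscle level as a covariate and within each trial, 2 of the 4 were called. With PTPRC as a covariate 1 was called and within the deeper libraries none. All 4 were called with the library-name group as a covariate and within the other libraries. Of the 8 general endothelial markers none passed, with a median of 0.27. Of the 7 matrix protease genes, which include inhibitors, 2 were higher, PLAU (1.15) among them, and MMP14 (-0.46) was lower, while MMP1, MMP3, MMP13 and TIMP1 did not pass. Over all genes 11.2% were higher and 9.1% lower. The call of MMP14 was lost with CSF3R left out of the score and with PTPRC, the muscle level or the erythroid level as a covariate. It was also lost within each trial and each library group.

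**Figure D3:**
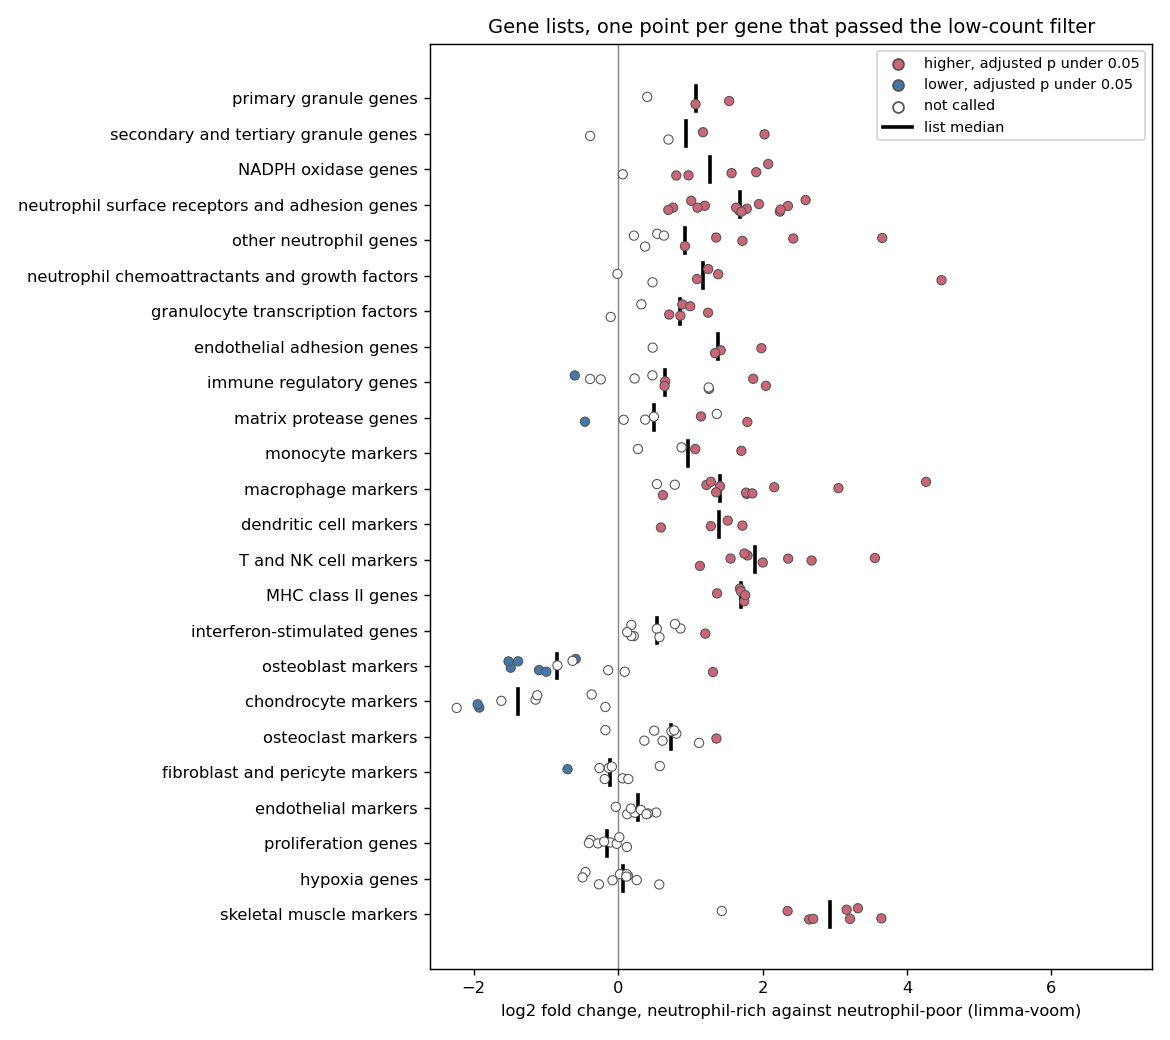
Log2 fold changes of the genes of each list, neutrophil-rich against neutrophil-poor, 1 point per gene that passed the low-count filter, with the list median as a bar and the color giving the call at an adjusted p under 0.05. The 14 surface receptor genes lie at or above 0.69, the osteoblast markers have a median of -0.84, and no proliferation or hypoxia gene was called.

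Genes of other leukocytes were higher in the rich tumors too. PTPRC, the pan-leukocyte gene CD45, ran from 32.3 to 1583 CPM (median 98.1) in the rich tumors and from 5.83 to 344 CPM (median 43.7) in the poor, a log2 fold change of 1.32 ± 0.22 (SE), adjusted p = 3.39e-06. In bulk samples, more cells of a type and more RNA of that gene per cell cannot be told apart. Of the 13 macrophage markers 11 were higher, with a median of 1.41, and summed they ran from 287.9 to 10478 CPM in the rich and from 123.4 to 3302 CPM in the poor tumors. The scavenger receptors MARCO (4.26 ± 0.70) and CD163 (2.16 ± 0.30) were among them, and CD68 (0.78, adjusted p = 0.109) and SIGLEC1 (0.54, adjusted p = 0.2) were not. The monocyte genes CD14 (1.07) and CCR2 (1.71) were higher, VCAN (0.27) and CX3CR1 (0.88) did not pass, and CD300E (2.29) was higher without the filter. All 4 dendritic cell markers measured, XCR1, CCR7, BATF3 and FLT3, and all 5 MHC class II genes were higher, the latter with a median of 1.70. Within the deeper libraries 2 macrophage markers and no dendritic cell marker or MHC class II gene were called.

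Of the 8 T and NK cell markers that passed the filter, each was higher, with a median of 1.90, but the groups overlapped widely. CD3E, a chain of the T cell receptor complex, ran from 0.937 to 880 CPM (median 6.42) in the rich and from 0.122 to 137 CPM (median 2.36) in the poor tumors, a log2 fold change of 2.00 ± 0.48 (SE), adjusted p = 0.00111. Of the rich tumors 3 lay above every poor tumor, and 16 of the 46 were at or below the median of all 186 tumors. CD4 stood apart, from 1.60 to 327 CPM (median 14.1) in the rich and from 0 to 9.43 CPM (median 1.58) in the poor tumors, with 3.56 ± 0.40 (SE), adjusted p = 4.81e-11. CD3D (2.10), CD8A (2.04), NKG7 (2.44), GZMA (1.51), PRF1 (1.78), KLRB1 (1.94) and NCR3 (1.31) failed the filter and were higher without it. Of the B cell and plasma cell markers, JCHAIN was higher at 1.45, and MZB1 (2.90), POU2AF1 (2.49), CD79A (1.89), CD79B (1.68), IRF4 (1.66) and MS4A1 (1.41) without the filter, where PAX5 did not pass. JCHAIN was not called within any trial or library group.

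Immune regulatory genes followed in part. IDO1, which degrades tryptophan, was higher by 2.05 ± 0.53 (SE), the checkpoint ligands PDCD1LG2 by 1.87 ± 0.29 and CD274 by 1.26 ± 0.28, and VSIR and ENTPD1 by 0.65 and 0.64. With PTPRC as a covariate, and within the deeper libraries, none of the 11 genes of this list that passed the filter was called higher. Within COTC021 2 were called higher, within COTC022 3 and within the other libraries 5. TGFB1 was lower, from 23.1 to 331 CPM (median 116) in the rich and 38.4 to 572 CPM (median 172) in the poor tumors, with -0.60 ± 0.16, adjusted p = 0.00478. This call was lost with CSF3R left out of the score, with PTPRC as a covariate, within COTC021 and within each library group. PTGS2 (1.25 ± 0.56, adjusted p = 0.101), NOS2, OLR1, NT5E and ARG1 did not pass, and IL10 (1.32) was higher without the filter. Of 9 interferon-stimulated genes only GBP5 (1.21, adjusted p = 0.0252) passed, a share near that of all genes (11.2% higher). GBP5 did not pass with S100A12 left out of the score, with PTPRC or the muscle level as a covariate, or within any trial or library group. Of the acute phase genes SAA1, PTX3 and CP none passed. CXCL10, CRP and HAMP failed the filter and were not called without it, and IFIT1, CXCL9, ORM1 and HP were not analysed here.

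With PTPRC as a covariate, 277 genes (2.06%) were higher by the same test and 229 (1.71%) lower. Of the 1506 genes higher without the covariate, 231 were called with it. S100A9 kept a log2 fold change of 5.35, CXCL8 4.06, MARCO 3.85, AQP9 3.05, FFAR2 2.80, CD4 2.39 and TREM1 2.03, each still called. Of the 14 surface receptors 7 were called, of the 13 macrophage markers 5, and of the 5 MHC class II genes none. Of the 3 primary granule genes none was called, of the 4 secondary and tertiary granule genes 1 and of the 6 NADPH oxidase genes 2. Of the 9 other neutrophil genes 3 were called, and of the 7 granulocyte transcription factors 2. Of the 8 T and NK cell markers, CD4 alone was called (adjusted p = 6.5e-08), while CD3E had 0.16 and GZMK 0.22. LYZ, NCF1, BCL2A1, FGR, S100P, IL33 and PLAU were called as well.

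**Figure D4:**
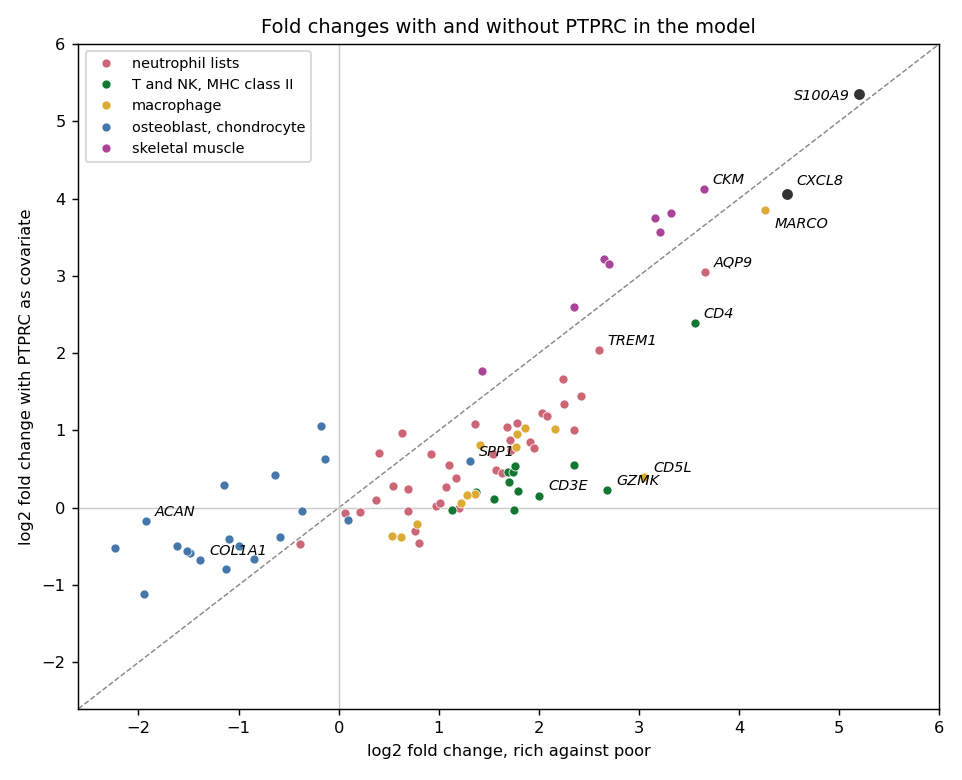
Log2 fold changes of list genes, rich against poor, without (horizontal axis) and with (vertical axis) PTPRC as a covariate, 1 point per gene, colored by list, with the line of equality dashed. S100A9 stays at 5.35 and CD4 at 2.39, CD3E and GZMK drop to 0.16 and 0.22, and ACAN moves from -1.92 to -0.17.

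Part of the osteoblast genes were lower in the rich tumors. Of the 11 osteoblast markers 6 were lower and 1 higher, with a median of -0.84. Over all genes 9.1% were lower and 11.2% higher, so the share of higher markers was near that of all genes. Within COTC021 1 was lower, within COTC022 3, within the deeper libraries none and within the others 5. With CSF3R left out of the score 4 were lower, and 6 with S100A8 or with S100A12 left out. COL1A1, the main collagen chain of bone matrix, ran from 328.4 to 61253 CPM (median 12450) in the rich and from 1522 to 112270 CPM (median 32163) in the poor tumors, a log2 fold change of -1.39 ± 0.28 (SE), adjusted p = 0.000132. ALPL (-1.52), the bone transcription factor SP7 (-1.49), COL1A2 (-1.10) and RUNX2 (-0.59) were lower, and IBSP, BGLAP, DMP1 and PHEX did not pass. SPP1, osteopontin, which macrophages also make, was higher by 1.31 ± 0.33.

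SMPD3, a sphingomyelinase needed for skeletal mineralization, led the 10 DEGs with the largest negative changes. It had -1.97 ± 0.47 (SE), adjusted p = 0.00111, with 0 to 752 CPM (median 71.5) in the rich and 6.53 to 852 CPM (median 195) in the poor tumors. COL11A2 (-1.95 ± 0.46), the hedgehog ligand IHH (-1.94 ± 0.66), the cartilage proteoglycan ACAN (-1.92 ± 0.58) and the growth factor receptor FGFR3 (-1.74 ± 0.31) were among them. LRRC4B, DUOX1, NDNF, SLC8A3 and CPN2, between -1.85 and -1.60, completed the 10. The groups overlapped for all of these genes, and no rich tumor was the highest of both groups in any. Of the 8 chondrocyte markers ACAN and COL11A2 were the lower ones called, with a list median of -1.38, and COL2A1 had -2.24 ± 0.97 (adjusted p = 0.0903). This count depended on the test, since 7 of the 8 were lower in the quasi-likelihood fit of edgeR and 6 in DESeq2. MATN1 was lower without the filter (-1.02). With PTPRC as a covariate, no osteoblast or chondrocyte marker was called, and of the 10 genes only CPN2 was (-1.69, adjusted p = 0.048). Markers of osteoclasts were called higher once in 9 genes, for DCSTAMP (1.36), and those of fibroblasts and pericytes lower once in 8, for PDGFRA (-0.70), shares near those of all genes (11.2% higher and 9.1% lower). No osteoclast marker was called in edgeR, in DESeq2, with the continuous score, with PTPRC as a covariate or with S100A8 left out. Nor was any called within a trial or a library group. PDGFRA was not called with S100A12 left out or with PTPRC or the muscle level as a covariate. Within each trial and within the other libraries PDGFRA was not called either. Of 8 proliferation genes and 10 hypoxia genes none was called in either direction, while edgeR and DESeq2 each called 1 of either list lower.

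Genes of skeletal muscle and of red cells moved with the score. Of the 8 muscle markers 7 were higher, with a median of 2.93, and CKM, MYH2 and ACTA1 were among the 10 largest changes. Summed, they ran from 2.67 to 64722 CPM (median 90.2) in the rich and from 3.37 to 5274 CPM (median 19.1) in the poor tumors, so a few tumors were very high in each group. Their median log2 fold change was 5.50 within the deeper libraries and 1.51 within the others, and none was called within either. None was called within COTC021 and 3 within COTC022. FABP4, of adipocytes, macrophages and capillaries, was higher by 4.01 ± 0.81, while PLIN4 and LPL did not pass. Without the filter ADIPOQ was higher (1.75) and CIDEC and PLIN1 were not. With the muscle level as a covariate, which was added after seeing the data, 1192 genes (8.88%) were higher and 885 (6.6%) lower, all 14 surface receptors were called and S100A9 had 5.26.

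Of the 13 erythroid markers 11 were in the table and none passed the filter, so these 11 had low counts in many tumors. Summed, they ran from 0.237 to 69.6 CPM (median 2.72) in the rich and from 0 to 3.11 CPM (median 0.886) in the poor tumors. ALAS2, the heme synthesis enzyme of red cell precursors, was higher by 2.74 ± 0.45 (SE) without the filter, adjusted p = 2.49e-06, with at least 10 counts in 24 rich and 1 poor tumors, and SLC4A1 (1.73), AHSP (1.71), HBM (1.56), RHAG (1.36), GATA1 (1.32), CA1 (1.27) and EPB42 (1.25) were higher too, while HEMGN and KLF1 did not pass. The globin genes HBB and HBA1 were not analysed here. With the erythroid level as a covariate, also added after seeing the data, 1625 genes (12.1%) were higher and 1433 (10.7%) lower, and 13 of the 14 surface receptors were called. The early hematopoietic genes CD34, MYB and SPINK2 and the platelet gene ITGA2B did not pass, and neither did DNTT, RAG1 and VPREB3 without the filter. Beyond these covariate fits, the part of muscle and blood RNA in the results was not tested.

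GS-1 is the immune gene signature by which the study clustered its tumors, and all 27 of its genes used here passed the filter. Of these, 26 were higher in the rich group, with a median log2 fold change of 1.61, led by CFP (2.56), CASP12 (2.17) and CD53 (1.93), and ZNF467 (0.45, adjusted p = 0.127) was not. None of them is a score gene, but NCF1 also belongs to the neutrophil oxidase. With PTPRC as a covariate 4 of 27 were called. The GS-1 score, the mean z-score over these genes, ran from -0.621 to 3.23 in the rich tumors (mean 0.607 ± 0.839, SD, n = 46) and from -1.56 to 1.58 in the poor (mean -0.437 ± 0.633, SD, n = 46). The difference of 1.04 had a permutation p of 2e-05, the smallest that 100000 resamples can give when both tails are added. The difference was 1.05 in COTC021 and 1.04 in COTC022, and 1.33 among deeper and 0.948 among other libraries.

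K-means with 2 clusters on the GS-1 genes, run on the deposited counts, placed 26 of 46 rich tumors (56.5%) and 6 of 46 poor tumors (13.0%) in the GS-1-high cluster (Fisher's exact test, two-sided, p = 2.07e-05). Of the 94 middle tumors 32 were GS-1-high. The shares were 56.0% and 8.33% in COTC021 and 57.1% and 18.2% in COTC022 (p = 0.000577 and 0.0122), and 54.5% and 11.1% in the deeper libraries and 57.1% and 14.3% in the others (p = 0.0281 and 0.000628). The 20 rich tumors in the GS-1-low cluster had neutrophil scores from 0.424 to 3.10 (median 1.15), against 0.424 to 3.89 (median 1.36) in the 26 GS-1-high ones. Their CXCR1 levels had a median of 2.37 against 2.83 CPM, and their CD3E levels one of 2.02 against 16.0 CPM. The clusters were drawn from the GS-1 genes, which hold genes of T cells and macrophages and the neutrophil oxidase gene NCF1. The CD3E and CXCR1 values are therefore a description with no test.

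**Figure D5:**
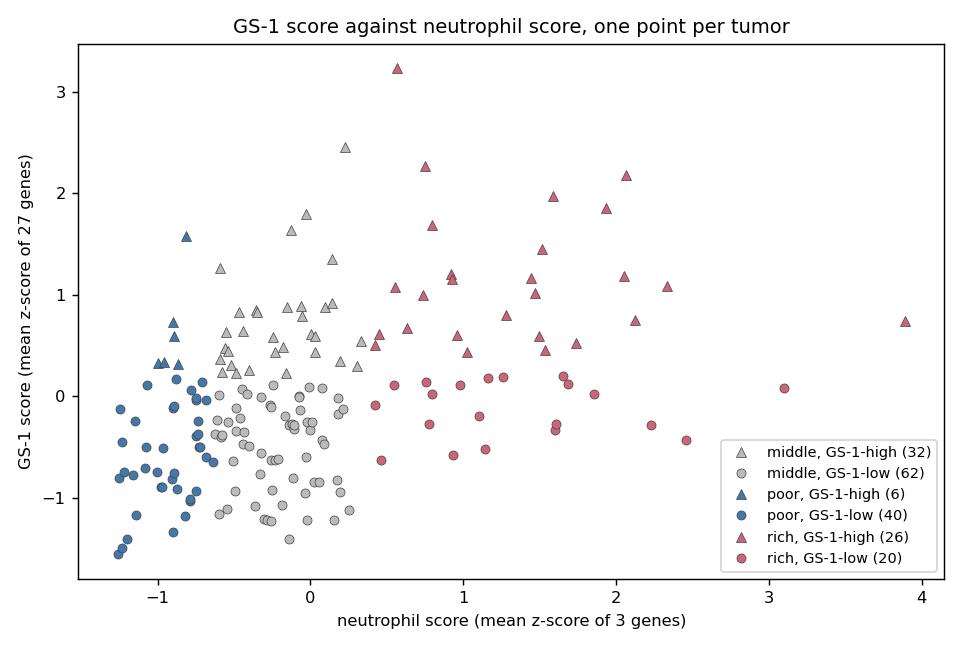
GS-1 score (mean z-score of 27 genes) against neutrophil score (mean z-score of 3 genes), 1 point per tumor, colored by group, with triangles for the GS-1-high and circles for the GS-1-low K-means cluster. Of the neutrophil-rich tumors 26 are GS-1-high and 20 GS-1-low, and of the neutrophil-poor 6 and 40.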

How the data were processed

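Primary tumors of 186 dogs were analysed from 1 table of gene counts. Per the labels, reads were processed with bcl2fastq, cutadapt, STAR 2.7.0f and RSEM 1.3.1, on the build GSD_1.0, and the authors deposited expected counts for 37952 gene rows, not normalized. A read that maps to several genes is divided between them, and 3.07% of values were not whole. Of 198 columns 186 were used and 12 were not, since they belong to no sample here.

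Expected counts were rounded. The filterByExpr function of edgeR 4.0.16, with a large.n of 5, a min.prop of 0.5 and a min.count of 10, kept 13422 genes. TMM-normalized counts were fitted in R 4.3.3 by voom of limma 3.58.1, with the trial as covariate, and the 3 score genes were left out of all counts of calls. Alternatives were DESeq2 1.42.0, the quasi-likelihood test of edgeR, no filter, other scores and cuts, and subsets of tumors. The fits were tested on simulated data. Scores, K-means (200 starts) and permutation tests (100000 resamples) were run in Python 3.11.15 with scikit-learn 1.9.0, scipy 1.17.1, numpy 2.4.6 and pandas 2.3.3. Plots were drawn with matplotlib 3.10.9. CPM in the text are not TMM-normalized and not scaled to gene length, so levels are compared between tumors and not between genes.

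The genes named are the score genes, the 10 DEGs with the largest change in each direction that have a gene symbol and the same direction within each trial and library group, PTPRC, and the members of gene lists. The score, the groups and the lists were chosen with earlier results of these data known. DFI, OSv and the clusters listed by the study were not analysed here, nor were sequences. Results for some genes of the lists are not reported here, although they count in the lists. Gene positions are those of RefSeq on GSD_1.0.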

Additional observations from a re-analysis of the deposited data

How the results depend on the processing

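No gene called in the main comparison was called in the opposite direction under any of the 18 alternatives. The difference in GS-1 score and in the share of GS-1-high tumors passed the test under each of its 10 alternatives. Counts moved by more than 1.5 times as follows, where the main counts were 1506 genes higher, 1221 lower, 215 DEGs higher and 11 lower. With PTPRC as a covariate they were 277, 229, 50 and 1. COTC021 alone gave 510, 168, 135 and 4, COTC022 alone 785 and 453 genes and 30 lower DEGs, the deeper libraries 135, 49 and 94 higher DEGs, and the other libraries 922 and 584 genes and 18 lower DEGs. These subsets hold fewer tumors. Without S100A12 in the score 748 genes were lower, with 2 lower DEGs, and without CSF3R 5 DEGs were lower. The top and bottom 62 tumors in place of 46 gave 127 higher DEGs, and no low-count filter 438. With the score as a continuous covariate, whose fold change is per unit of score, 2 DEGs were higher and none (0) lower. Lower DEGs numbered 24 in edgeR's fit, 21 in DESeq2, 20 with the muscle level and 44 with the erythroid level as a covariate, the last 2 added after seeing the data. Of 129 called genes of the lists and of the largest changes, 106 lost the call within the deeper libraries and 35 within the others. Within COTC021 57 lost it and within COTC022 46. With PTPRC as a covariate 77 lost the call and 12 turned sign without a call: ABCA3 (-0.10), CCR1 (-0.15), CD8B (-0.022), CSF1R (-0.38), FLT3 (-0.14), GBP5 (-0.29), IL2RB (-0.031), ITGAX (-0.29), RAC2 (-0.45), SELPLG (-0.0066), SPI1 (-0.073) and TLR7 (-0.19). DES, not called, was lower with the muscle level as a covariate (-0.70). That level is computed from the muscle markers, DES among them, so this value cannot be read as a difference in DES. LUM, not called, was lower within the deeper libraries (-2.54). The causes were not tested.

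No paired analysis was possible because each dog gave 1 tumor and the replicate numbers pair no samples. Depth limits several neutrophil genes: CXCR1, CXCR2, LTF, CAMP, PADI4 and ELANE had few or no counts in most tumors, so their fold changes, taken from the fit without a filter, rest mainly on the rich tumors. Each dog is 1 library, and regions of a tumor were not compared.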

Other observations

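Since CD4 is found on T cells and on canine neutrophils, its level was set beside those of CXCR1, as a neutrophil gene outside the score, and CD3E, as a T cell gene, a choice made after the values were seen. On log2(CPM + 1) over all 186 tumors, CD4 correlated with CXCR1 (Pearson's r = 0.760, Spearman's rho = 0.682) and with CD3E (r = 0.566, rho = 0.517), and CXCR1 with CD3E less closely (r = 0.274, rho = 0.326). The permutation p, counted over absolute correlations, was 1e-05, the smallest that 100000 resamples can give in this way, for both measures of the first pairs, and 0.00022 for r and 1e-05 for rho of the last (adjusted over 15 relations, 1e-05, 1e-05, 0.0003 and 1e-05). Leaving out the 2 tumors farthest from the median on the first axis gave r = 0.733, 0.498 and 0.305. The r of CD4 with CXCR1 was 0.752 over COTC021, 0.770 over COTC022, and 0.763 and 0.775 over deeper and other libraries, and that of CD4 with CD3E 0.567, 0.574, 0.689 and 0.504. That of CXCR1 with CD3E was 0.328, 0.191, 0.243 and 0.283, with permutation p = 0.0661 in COTC022 and 0.0859 in the deeper libraries, where rho was 0.242 (p = 0.0195) and 0.429 (p = 0.00203). The difference between these correlations was not tested.

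Genes of eosinophils, basophils and mast cells were scarce. KIT, which other cells also make, was lower in the rich tumors (-0.61 ± 0.23, adjusted p = 0.0432), and GATA2 had -0.18. The call of KIT was lost in edgeR (adjusted p = 0.0778), DESeq2 (0.0578), with the library-name group (0.0771), PTPRC (0.489) or the muscle level (0.0654) as a covariate and with S100A12 left out of the score (0.299), and within each trial and library group. Without the low-count filter FCER1A (2.40), MS4A2 (2.09), CCR3 (1.68), EPX (1.40) and IL5RA (0.78) were higher, and CPA3 (1.35, adjusted p = 0.109) and HDC (0.73, adjusted p = 0.234) did not pass. IL5RA reached 10 counts in no tumor of either group, CCR3 in 4 rich and no poor tumors, and EPX in 7 rich and 1 poor. Of the platelet genes that failed the filter, PPBP, whose product also attracts neutrophils, was higher without it (3.21 ± 0.40, adjusted p = 2.32e-09), with at least 10 counts in 29 rich and 3 poor tumors. GP6 (1.42), TUBB1 (1.36) and GP1BA (1.07) were higher too, each with at least 10 counts in 3 or 4 rich tumors and no poor tumor, and GP9 did not pass. Of the epithelial genes none passed the filter and the test, and SFN (1.09, adjusted p = 0.0205) was higher without the filter.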
